A study of Mus musculus with 24 samples.

Results

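The 9 genes described here handle iron in the cell: Tfrc, Slc11a2 and Slc11a1 for uptake, Fth1 and Ftl1 for storage, Hmox1 for release from haem, Slc40a1 for export, and Aco1 and Ireb2 for regulation. They were chosen by their known function out of 22009 named entries in the abundance table, and all 9 were found. The choice was made with earlier results of all 24 libraries in view, so the levels and changes of these 9 genes are given as a description and no p-value is attached to them. Tests are given only for the wider lists of other iron genes, which were written by function but also with earlier results known.

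RNA sequencing was carried out on CD4+ T cells from the spleen of wild-type adult C57BL/6 mice. The time course had 2 libraries of resting cells and 18 of cultures, 1 for each of Th0, Th1 and Th2 at 4, 8, 12, 16, 20 and 24 h after activation. Activation was by antibodies to CD3 and CD28 in every culture. Recombinant IL-12 with an antibody to IL-4 was added for Th1, and recombinant IL-4 with antibodies to IL-12 and IFN-γ for Th2. For the remaining 4 libraries, actinomycin, an inhibitor of transcription, was added after 16 h of stimulation and RNA was taken 0, 1, 2 or 4 h later, in a skewing condition that the labels do not give. The cells came from pooled spleens, so the libraries are not separate animals and the spread between them may be technical. The study's text calls the cells purified in one place and naive in another. The resting libraries carry a different tag in their labels from the cultures, so a difference in preparation cannot be told apart from activation. For this reason the cultures at 24 h were also compared with those at 4 h.

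Cells take up iron bound to transferrin through the transferrin receptor, encoded by Tfrc, and store what they do not use inside ferritin. Iron regulatory proteins, encoded by Aco1 and Ireb2, bind hairpins called iron-responsive elements when iron is scarce. In a 5′ UTR this blocks translation, as for ferritin and the exporter ferroportin, and in the 3′ UTR of Tfrc it protects the mRNA from decay. Spleen macrophages recycle iron from old red cells and are known for high levels of ferroportin, haem oxygenase 1 and the phagosomal transporter Nramp1, the products of Slc40a1, Hmox1 and Slc11a1.

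A search of the annotated transcripts for the hairpin (the loop CAGTGN, 5 paired bases on each side with G and T allowed to pair, and an unpaired C before the stem, on the transcribed strand) found it in 4 of the 9 genes. The sites are shown because they separate the genes of this group by where the hairpin lies. Each is 30 bases of GRCm38 in the GENCODE M21 annotation, 5′ to 3′ on the transcribed strand, with the loop in capitals.
Tfrc 3′ UTR, chr16:32631219-32631248, plus strand: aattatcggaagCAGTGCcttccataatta
Tfrc 3′ UTR, chr16:32631598-32631627, plus strand: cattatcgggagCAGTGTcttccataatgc
Tfrc 3′ UTR, chr16:32631663-32631692, plus strand: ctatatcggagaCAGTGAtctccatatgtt
Tfrc 3′ UTR, chr16:32631710-32631739, plus strand: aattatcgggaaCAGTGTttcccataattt
Fth1 5′ UTR, chr19:9982732-9982761, plus strand: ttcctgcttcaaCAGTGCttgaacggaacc
Ftl1 5′ UTR, chr7:45459778-45459807, minus strand: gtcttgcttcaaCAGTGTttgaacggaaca
Slc40a1 5′ UTR, chr1:45925464-45925493, minus strand: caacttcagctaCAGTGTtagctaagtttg

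The same letters and pairing occurred in 294 of 21877 protein-coding genes (1.34%), in a 5′ UTR for 31 genes (0.142%) and in a 3′ UTR for 129 (0.590%). A match is a description of the sequence and was not tested as a binding site. No match was found in Slc11a2, Slc11a1, Hmox1, Aco1 or Ireb2, which says only that these letters are not in the transcripts searched.

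Values are RPKM, read numbers scaled to the length of the transcript and to the mapped reads of the library, so that levels of different genes can be set side by side on this scale. The number of mapped reads recovered from the values was between 17512385 and 33017133 in the time course and between 18052931 and 25735543 in the actinomycin libraries. T cell markers summed to between 1229 and 2134 RPKM in every library of the time course. Transcripts of other cells were also present at rest: 19 of 20 macrophage markers had at least 1 RPKM in both, and haemoglobin and other red cell markers summed to between 38827 and 42373 RPKM. In bulk RNA, fewer cells of a type and less RNA per cell cannot be told apart. Changes are log2 differences of RPKM with 0.5 added, which understates the change of low genes, with the standard error (SE) of a fit over all 20 libraries of the time course.

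In 6 of the 9 genes all 18 cultures were below both resting libraries, as in 19.4% of the 10897 genes whose mean over the time course reached 1 RPKM, and in 1 all 18 were above, as in 12.4%. The genes were chosen with these levels known, so nothing is read from the counts.

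**Figure D1:**
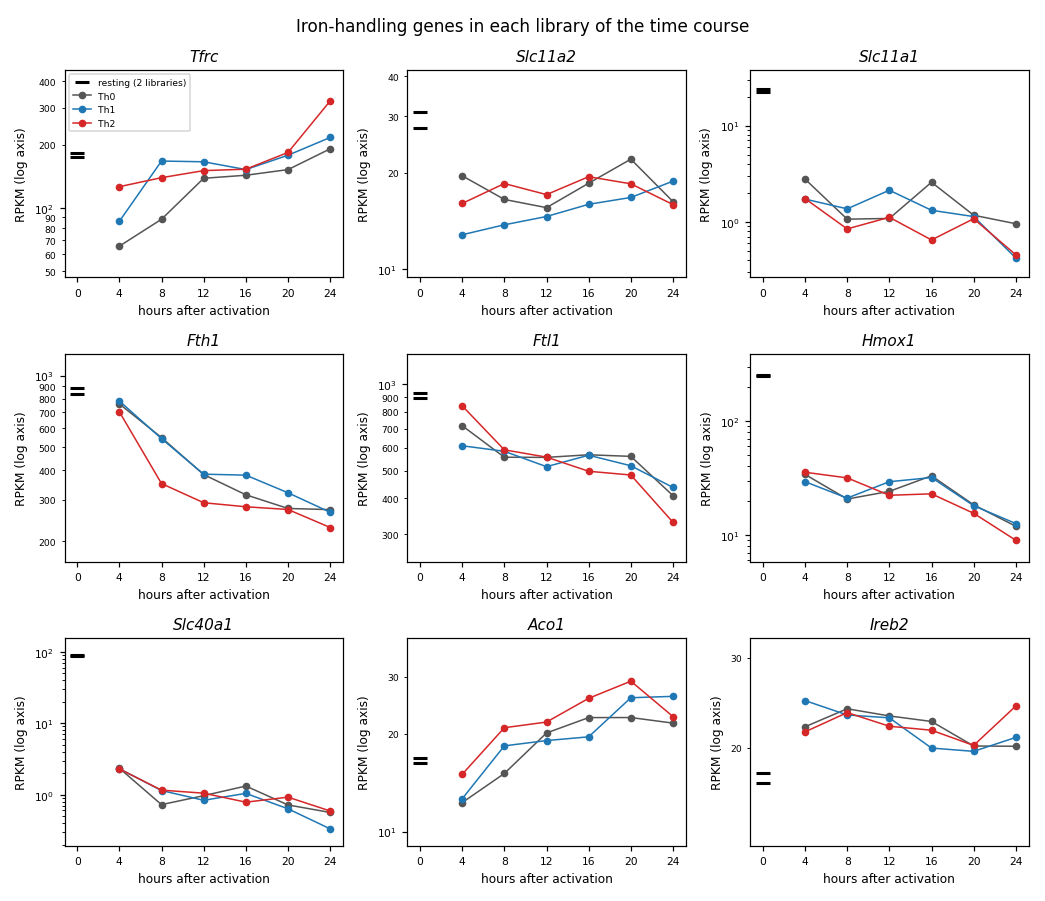
RPKM (log axis) of each of the 9 genes against hours after activation. Dashes at 0 are the 2 resting libraries, and each point is 1 culture of Th0, Th1 or Th2. All 18 cultures lie below both resting libraries for 6 genes, whereas for Ireb2 all 18 lie above.

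Slc40a1 (ENSMUSG00000025993.10, chromosome 1 from 45908068 to 45926523, minus strand) encodes ferroportin, which exports iron from cells. The resting libraries had 90.2 and 86.3 RPKM of Slc40a1, from 6024 and 6864 reads. At 4 h, Slc40a1 was at 2.34, 2.31 and 2.29 RPKM in Th0, Th1 and Th2. At 24 h the values were 0.562, 0.332 and 0.590 RPKM. All 18 cultures were below both resting libraries, with no overlap. The exact Poisson 95% interval of Slc40a1 in Th1 at 24 h, from 31 reads, was 0.188 to 0.543 RPKM, and in Th2 at 24 h it was 0.384 to 0.867 RPKM, so these cultures overlapped in counting error. Intervals here treat 2 reads as 1 pair and cover counting error only. The log2 change of Slc40a1 was -4.98 at 4 h (SE 0.18) and -6.49 at 24 h (SE 0.18). From 4 to 24 h, within the cultures, the log2 change was -1.51 (SE 0.16).

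Hmox1 (ENSMUSG00000005413.8, chromosome 8 from 75093621 to 75100589, plus strand) encodes haem oxygenase 1, which breaks haem down to release its iron. Hmox1 had 253 and 251 RPKM in resting cells and 34.1, 29.4 and 35.6 RPKM in Th0, Th1 and Th2 at 4 h. Between 8 and 20 h the cultures stayed between 15.6 and 33.2 RPKM. At 24 h Hmox1 was at 12.0, 12.6 and 9.02 RPKM in the same order, the lowest value of each condition. The log2 change of Hmox1 was -2.91 at 4 h and -4.44 at 24 h (SE 0.20 for both).

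Slc11a1 (ENSMUSG00000026177.11, chromosome 1 from 74375195 to 74386062, plus strand) encodes Nramp1, which moves divalent metals out of the phagosome of macrophages. Resting cells had 23.9 and 22.4 RPKM of Slc11a1, against 2.78, 1.72 and 1.74 RPKM in Th0, Th1 and Th2 at 4 h. By 24 h the values were 0.954, 0.421 and 0.454 RPKM. The cultures varied more for this gene than for the others: the SD left over in the fit was 0.39 on the log2 scale, against 0.078 for Ireb2. The log2 change of Slc11a1 was -3.22 at 4 h and -4.44 at 24 h (SE 0.33 for both).

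Macrophage markers moved with these 3 genes. The 20 markers summed to between 782 and 806 RPKM in resting cells, 60.7 to 100 RPKM at 4 h and 17.9 to 29.1 RPKM at 24 h, and no marker was at 0 in all libraries of a time point. Of 5 defining markers, Csf1r had 60.8 to 66.8 RPKM in resting cells and 1.64 to 2.17 RPKM at 24 h. Adgre1 (the gene of F4/80) went from 30.2 to 30.3 RPKM at rest to 0.110 to 0.210 RPKM at 24 h, and C1qa from 107 to 110 RPKM to 0.209 to 0.263 RPKM. Cd68 had 30.9 to 33.2 RPKM at rest and 1.81 to 2.51 RPKM at 24 h, and Spic, the factor that red pulp macrophages depend on, had 31.9 to 36.3 RPKM and 1.73 to 2.28 RPKM. The 10 neutrophil markers summed to 16.8 to 18.3 RPKM in resting cells, where 6 had at least 1 RPKM in both libraries. Mpo had the most of them (5.67 to 7.32 RPKM), S100a8 had 1.81 to 2.06 RPKM, and Ly6g was listed at 0.

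Set against each other at 4 h, Slc40a1 had a more negative log2 change than all 14 macrophage markers that could be fitted, which ran from -4.67 to -1.26 with a median of -3.60. Of the same markers at 4 h, 10 had a more negative change than Slc11a1 and 11 than Hmox1. At 24 h the markers ran from -7.22 to -2.24 with a median of -5.14, and 4 were below the change of Slc40a1, 8 below that of Slc11a1 and 8 below that of Hmox1. Of these markers, Adgre1, Cd5l, Mertk and Mrc1 reached a mean of 1 RPKM only with the resting libraries included. The filter therefore favoured a fall for them, and nothing is read from the ranks. Per 1000 RPKM of macrophage markers, Slc40a1 had 107 to 115 RPKM in resting cells and 22.8 to 38.0 RPKM at 4 h. Hmox1 was higher in the cultures on this scale, from 311 to 323 RPKM in resting cells to 752 to 1026 RPKM at 16 h and 435 to 505 RPKM at 24 h. Slc11a1 had 27.8 to 30.5 RPKM in resting cells and 14.5 to 36.4 RPKM at 24 h. These ratios depend on which markers are summed: Axl and Lyz2 made up 16.1% to 16.4% of the sum in resting cells and 50.4% to 64.0% at 24 h. With those 2 left out, a choice made after seeing the data, Slc11a1 went from 33.3 to 36.3 RPKM per 1000 RPKM of the other 18 markers in resting cells to 40.2 to 99.6 RPKM at 24 h. On that scale Hmox1 went from 372 to 385 RPKM to 1017 to 1249 RPKM, and Slc40a1 from 128 to 137 RPKM to 31.7 to 66.5 RPKM. The part of macrophage RNA in the values of these 3 genes was not tested.

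**Figure D2:**
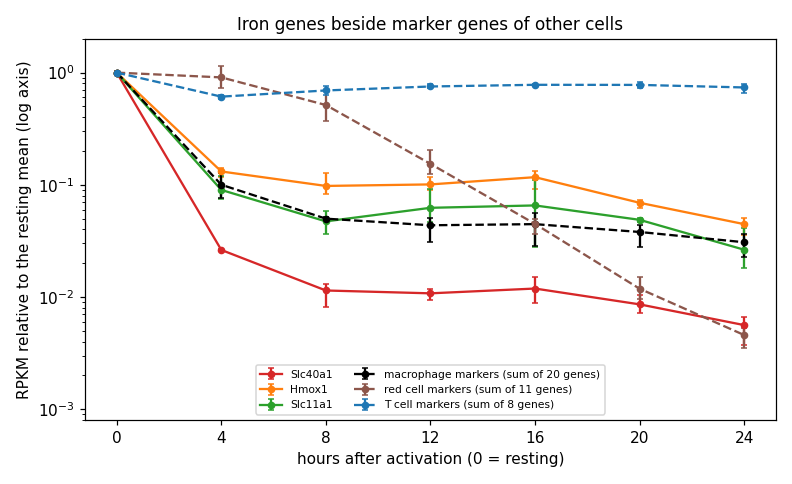
Mean RPKM relative to the mean of the resting libraries (log axis) against hours after activation. Bars run from the lowest to the highest library. Slc11a1 lies near the sum of 20 macrophage markers, Slc40a1 below it and Hmox1 above it, whereas 8 T cell markers stay above the other lines from 8 h.

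The genes whose profile over the 20 libraries was nearest to these 3, by the root mean square difference of centred log2 values among 10896 genes included Vcam1, Mrc1 and Spic of the macrophage list. For Slc40a1 they were Hpgd, Vcam1 and Mrc1 (0.31, 0.32 and 0.32). For Hmox1 they were Spic, Apoe and Tgfbi (0.32, 0.34 and 0.35), and for Slc11a1 they were Tgfbi, Clec4a3 and Cd302 (0.31, 0.34 and 0.36). The median over all genes was between 1.20 and 1.83 for these 3 genes. Genes entered by their mean over all 20 libraries, so genes high only at rest, such as Mrc1, could enter through their resting values. No source of the 3 transcripts is read from these neighbours.

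Fth1 (ENSMUSG00000024661.7, chromosome 19 from 9980598 to 9985098, plus strand) encodes the ferritin heavy chain, which oxidises iron as it enters the shell. It was at 834 and 887 RPKM in resting cells, from 14267 and 18077 reads. At 4 h Fth1 still had 760 RPKM in Th0, 782 in Th1 and 704 in Th2, and at 24 h it had 272, 266 and 229 RPKM. The log2 change of Fth1 was -0.20 at 4 h, -0.87 at 8 h, -1.30 at 12 h and -1.75 at 24 h (SE 0.18 for each). Fth1 was nearest in profile to Bsdc1, Lats2 and Sp4.

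Ftl1 (ENSMUSG00000050708.16, chromosome 7 from 45457944 to 45459884, minus strand) encodes the ferritin light chain, which helps the iron core to form. Ftl1 had 891 and 930 RPKM in resting cells, 717, 610 and 841 RPKM in Th0, Th1 and Th2 at 4 h, and 409, 437 and 330 RPKM at 24 h. Its log2 change was -0.35 at 4 h and -1.22 at 24 h (SE 0.13 for both). Other genes share 50.9% of its 50-base windows, the pseudogene Ftl1-ps1 above all, so its level is uncertain. Ftl1-ps1 was itself listed at 207 to 222 RPKM in resting cells and 66.4 to 103 RPKM at 24 h. It was also the gene nearest in profile to Ftl1.

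The ratio of Fth1 to Ftl1, both in RPKM, was 0.935 to 0.953 in resting cells, 0.838 to 1.28 at 4 h and 0.492 to 0.617 at 20 h. It was 0.608 to 0.693 at 24 h, below both resting libraries in all 3 cultures. This ratio carries the uncertainty of Ftl1.

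Tfrc (ENSMUSG00000022797.16, chromosome 16 from 32608920 to 32632794, plus strand) encodes the transferrin receptor and was lower than in resting cells at 4 h and higher at 24 h. Resting cells had 182 and 175 RPKM of Tfrc. At 4 h the cultures had 65.7 RPKM in Th0, 86.2 in Th1 and 126 in Th2, all below both resting libraries. At 24 h they had 191, 216 and 323 RPKM, all above both. The log2 change of Tfrc was -0.99 at 4 h (SE 0.26) and 0.41 at 24 h (SE 0.26), and between 4 and 24 h it was 1.40 (SE 0.23). The change of Tfrc at 24 h was 0.19 without the Th2 cultures and 0.15 under quantile normalization. Red cell precursors are known for high Tfrc. The 11 red cell markers had log2 changes between -1.68 and -0.08 at 4 h, where 6 of them had a more negative change than Tfrc, although their sum, 29324 to 46971 RPKM, lay on either side of the resting libraries. At 24 h all 11 had fallen, by a median of -7.34, to a sum of 141 to 212 RPKM. The part of red cell RNA in the resting level of Tfrc was not tested. The ratio of Tfrc to Fth1, both in RPKM, went from 0.197 to 0.219 in resting cells to 0.0865 to 0.179 at 4 h and 0.701 to 1.41 at 24 h. Pcna, a clamp of the DNA replication machinery, was the gene nearest in profile to Tfrc, followed by Hddc2 and Gm20503.

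Slc11a2 (ENSMUSG00000023030.16, chromosome 15 from 100387898 to 100425072, minus strand) encodes DMT1, which carries iron out of the endosome after uptake. It had 27.6 and 30.9 RPKM in resting cells. The 18 cultures were between 12.8 RPKM (Th1, 4 h) and 22.1 RPKM (20 h of Th0), all below both resting libraries. Its log2 change was -0.86 at 4 h and -0.77 at 24 h (SE 0.17 for both). An exon of Slc11a2 overlaps the gene Gm5475 on the opposite strand, and since the use of strand in counting is not given in the sources used here, reads of the pair cannot be told apart.

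Aco1 and Ireb2 encode the iron regulatory proteins 1 and 2, of which the first is also the cytosolic aconitase when it holds an iron-sulphur cluster. Aco1 (ENSMUSG00000028405.9, chromosome 4 from 40143081 to 40198338, plus strand) had 16.9 and 16.3 RPKM in resting cells, 12.3, 12.6 and 15.0 RPKM in Th0, Th1 and Th2 at 4 h and 21.6, 26.1 and 22.6 RPKM at 24 h. It was below both resting libraries in 4 of 18 cultures and above both in the other 14, with a log2 change of 0.79 between 4 and 24 h (SE 0.14). Ireb2 (ENSMUSG00000032293.8, chromosome 9 from 54863789 to 54912530, plus strand) had 17.9 and 17.1 RPKM in resting cells and between 19.7 and 24.7 RPKM in the cultures. Its log2 change was 0.37 at 4 h and 0.30 at 24 h (SE 0.10 for both), and -0.06 from 4 to 24 h (SE 0.09). The ratio of Ireb2 to Aco1, both in RPKM, went from 1.05 to 1.06 in resting cells to 1.43 to 1.96 at 4 h and 0.804 to 1.07 at 24 h.

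**Figure D3:**
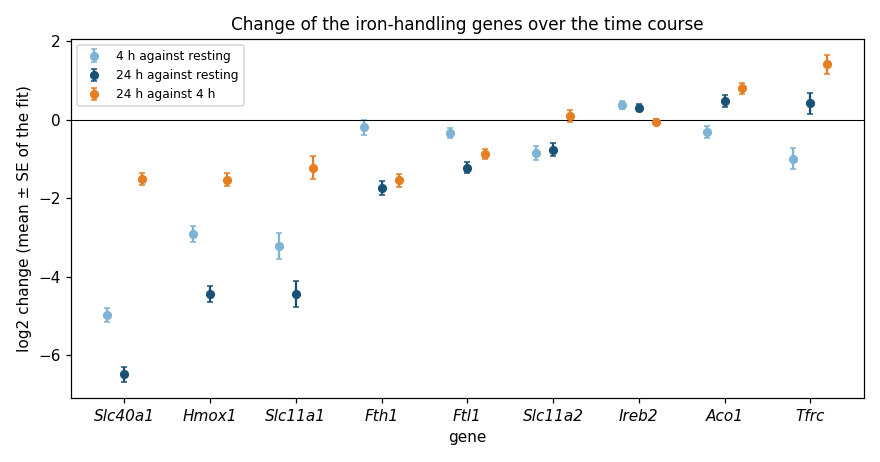
Log2 change (points, with the standard error of the fit as bars) of the 9 genes at 4 h and 24 h against resting cells and at 24 h against 4 h. Slc40a1 changed by -6.49 at 24 h, and Tfrc went from -0.99 at 4 h to 0.41 at 24 h.

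Between the skewing conditions, the differences of the 9 genes averaged over the 6 time points were between -0.48 and 0.47 on the log2 scale. Fth1 had its lowest value in Th2 at all 6 time points, with a log2 difference of -0.26 from Th0 (SE 0.08) and -0.34 from Th1 (SE 0.08). Of all genes, 18.6% had a lower difference from Th0 and 8.84% a lower one from Th1. The share of all genes with 1 order at all 6 time points was not computed, so nothing is read from such orders here. Beyond counting error, Fth1 in Th2 was below Th1 at 6 of 6 time points and below Th0 at 5 of 6. In Th1 it was above Th0 at 2 of 6. Fth1 had 4417 to 16029 reads per culture, so small differences pass counting error, and the share of other genes was not computed. The gap was widest at 8 h, where Th2 had 351 RPKM of Fth1, against 548 in Th0 and 542 in Th1, a ratio to Th0 of 0.640 (95% interval 0.612 to 0.669). At 20 h the ratio of Fth1 in Th2 to Th0 was 0.990 (0.941 to 1.04). Each culture was sequenced once, so the spread between cultures of 1 condition at 1 time is not known.

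Tfrc had its lowest value in Th0 at all 6 time points and its highest in Th2 at 4 of them. The log2 difference of Tfrc was 0.47 for Th2 against Th0 (SE 0.12), 0.34 for Th1 against Th0 (SE 0.12) and 0.13 for Th2 against Th1 (SE 0.12). At 8 h Tfrc was at 88.2 RPKM in Th0, 167 in Th1 and 139 in Th2. Aco1 was higher in Th2 than in Th0 at 6 of 6 time points, by 0.24 on the log2 scale (SE 0.08). In Th2 against Th0, 83.5% of all genes had a lower difference than Aco1 and 96.4% a lower one than Tfrc. The lowest of the differences, -0.48 (SE 0.19), was that of Slc11a1 between Th2 and Th0, at levels of at most 2.78 RPKM. Ireb2 differed by 0.02 or less in each of the comparisons (SE 0.07).

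The wider lists hold 90 other genes of iron biology, of which 71 had a mean of at least 1 RPKM in the time course. Lrp1 and Steap3 reached that mean only with the resting libraries included, so the filter favoured a fall for them. With limma, at an adjusted p under 0.05 and at least 2-fold, 5 of these 71 rose and 9 fell at 4 h, where 2.61% of 10897 genes rose and 7.97% fell. At 24 h 9 of 71 rose, at the share of all genes (12.7%), and 22 fell, against 17.4% of all genes. Between 4 and 24 h 7 rose, against 13% of all genes, and 18 fell, against 13.2%. The median log2 change of the 71 genes at 24 h was -0.26, against -0.04 over all genes.

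The list of mitochondrial iron import and haem synthesis had the most falls, 10 of 14 genes at 24 h (17.4% of all genes) with 1 rise and a median log2 change of -2.23. The largest were those of Alas2, the first enzyme of haem synthesis in red cell precursors (-7.48, SE 0.29, adjusted p = 1.57e-12, limma), and Abcb10, a mitochondrial transporter (-4.17, SE 0.20, adjusted p = 3.34e-11, limma). Alas2 went from 277 to 286 RPKM in resting cells to 0.741 to 1.74 RPKM at 24 h. Alas1, which encodes the same step in other cells, rose from 8.49 to 10.5 RPKM to 22.9 to 25.1 RPKM (1.32, SE 0.14, adjusted p = 9.33e-07, limma). At 4 h 4 of the 14 fell, Cpox (-1.37) and Abcb10 (-1.20) the most, and between 4 and 24 h 9 fell (13.2% of all genes), led by Alas2 (-6.95) and Abcb10 (-2.97). All 11 red cell markers fell at 24 h, by a median of -7.34, and their part in the fall of this list was not tested.

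Among genes of iron uptake and transport, 6 of 10 fell at 24 h, where 17.4% of all genes did, and 1 rose. Lrp1 and Steap3 are among the 10 only through their resting values, which favours a fall, so nothing is read from this count. Trf, the gene of transferrin, went from 105 to 108 RPKM to 0.182 to 0.664 RPKM (-7.01, SE 0.22, adjusted p = 1.91e-13, limma), and Lrp1, a receptor for haem bound to haemopexin, fell by 4.45 on the log2 scale (SE 0.26). Both are also expressed by macrophages, and the part of carried-over cells in these falls was not tested. Slc39a14, a transporter of zinc and iron, rose from 7.65 to 8.86 RPKM to 19.4 to 21.8 RPKM (1.24, SE 0.26, adjusted p = 0.000484, limma). At 4 h, Lrp1 (-3.80) and Trf (-2.96) fell the most of 4 falls. Between 4 and 24 h, Trf (-4.05) and Abcg2 (-2.14) fell and Slc46a1 rose (1.16).

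In iron storage and regulation, 2 of 9 genes fell and 1 rose at 24 h, counts near the shares of all genes (17.4% and 12.7%). Blvrb, a reductase abundant in red cells, fell by 5.87 (SE 0.35) and Epas1 by 1.55 (SE 0.33), and Pcbp1, a chaperone that hands iron to ferritin, rose by 1.03 (SE 0.20, adjusted p = 0.000336, limma). Epas1 was low, at 2.02 to 2.28 RPKM in resting cells and 0.238 to 0.641 RPKM at 24 h. Hif1a rose (1.13) and Blvra fell (-1.18) at 4 h. Between 4 and 24 h, Blvra (1.17) and Pcbp1 (1.02) rose while Blvrb (-5.01) and Epas1 (-2.11) fell.

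Iron-sulphur cluster assembly had 4 rises and no fall among 23 genes at 24 h, where 12.7% of all genes rose, so the number of rises is near that of all genes and is no result about the list. Hspa9, the mitochondrial chaperone that passes clusters on, rose from 90.9 to 94.7 RPKM to 349 to 374 RPKM (1.95, SE 0.23, adjusted p = 2.57e-06, limma), and Fdx1l by 1.25 (SE 0.25). No gene of this list passed the threshold at 4 h with limma, where 11 of 23 had an unadjusted p under 0.05, as 41.9% of all genes did. Between 4 and 24 h, 4 rose (13% of all genes), Hspa9 (1.80) and Fdx1l (1.33) the most.

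Of 15 targets and regulators of NRF2, the factor that drives Hmox1 and antioxidant genes, 4 rose and none fell at 4 h, where 2.61% of all genes rose. They were Srxn1 (1.46, SE 0.31, adjusted p = 0.00169, limma), Bach1 (1.18), Bach2 (1.11) and Txnrd1 (1.10). The count mixes targets with regulators, so it does not measure the activity of NRF2. Bach1, a repressor of Hmox1 that is released by haem, had 10.3 to 12.0 RPKM in resting cells, 25.2 to 27.1 RPKM at 4 h and 5.47 to 9.44 RPKM at 24 h. At 24 h Prdx1 (1.69) and Txnrd1 (1.60) had risen, and 4 had fallen, near the shares of all genes (12.7% and 17.4%), Nqo1 (-1.65) and Maff (-1.22) the most. Between 4 and 24 h none rose and 5 fell (13.2% of all genes), Bach1 (-1.86) and Maff (-1.60) the most.

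**Figure D4:**
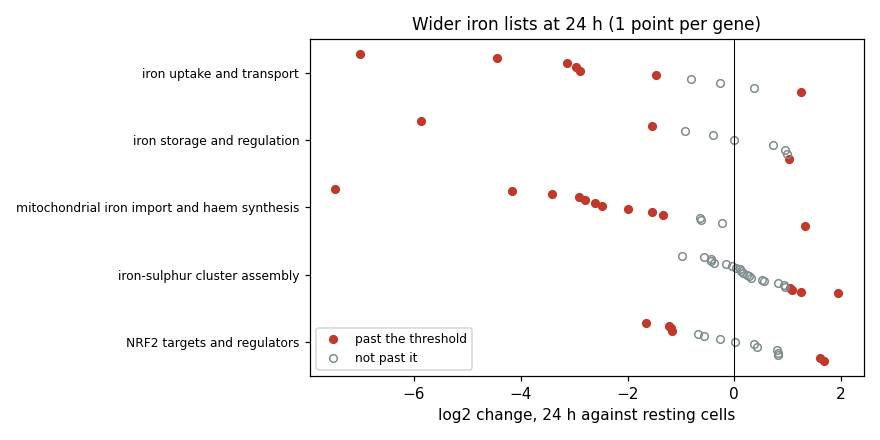
Log2 change at 24 h against resting cells (horizontal axis) of each gene in the wider iron lists, 1 point per gene. Filled points passed an adjusted p under 0.05 and 2-fold, and 10 of 14 genes of haem synthesis are filled on the side of falls.

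Between conditions, with 69 genes of the wider lists tested, limma called 0 at 2-fold in Th2 against Th0, 0 in Th2 against Th1 and 0 in Th1 against Th0, where 2.01%, 1.96% and 0.494% of 10737 genes were called. Of the 69, 25, 15 and 9 had an unadjusted p under 0.05 in the same order, against 41.2%, 25.3% and 16.4% of all genes. Differences under 2-fold did reach an adjusted p under 0.05. The lowest adjusted p was that of Mcoln1 in Th2 against Th0 (-0.51, adjusted p = 0.00048, limma). In Th2 against Th1 it was that of Abcb6 (0.45, adjusted p = 0.0093, limma), and in Th1 against Th0 that of Epas1 (-0.70, adjusted p = 0.011, limma). Epas1 was low in the cultures, at 2.96 to 4.17 RPKM at 4 h and 0.238 to 0.641 RPKM at 24 h. The time points stood in for replicates in these tests.

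The actinomycin libraries address how fast each transcript was lost once transcription was blocked. There was 1 library per time point, so the slopes have no replicate check. RPKM is relative to all RNA left in the library, so a slope of 0 is loss at the pace of the other transcripts. Over 10571 genes, the slope of log2(RPKM + 0.1) had a median of 0.0024 per hour, with 5% of genes below -0.276 and 5% above 0.257. Fth1 had 370, 405, 453 and 474 RPKM at 0, 1, 2 and 4 h, a slope of 0.089 (SE 0.022), and Ftl1 554, 674, 655 and 823 RPKM, a slope of 0.130 (SE 0.032). Both ferritin chains were highest at 4 h. Tfrc had 162, 136, 192 and 145 RPKM, with no steady direction (slope -0.013, SE 0.089). Aco1 had 25.0 RPKM at 0 h and 19.5 RPKM at 4 h (slope -0.077, SE 0.027).

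Slc11a1 had 1.20, 1.35, 1.54 and 1.76 RPKM in the same libraries, a slope of 0.129 (SE 0.016), and Hmox1 had 22.5, 22.0, 17.9 and 23.3 RPKM (slope 0.006, SE 0.071). The 20 macrophage markers summed to 68.2, 78.9, 90.7 and 76.8 RPKM in these libraries, above the 22.4 to 44.1 RPKM of the 16 h cultures. Without Axl and Lyz2 the sum was 13.9, 21.3, 24.0 and 47.8 RPKM, highest at 4 h, where Cd68 alone had 30.5 RPKM. Cd68 thus made up a large part of the sum at 4 h, and how far the other markers shared in its rise was not tested. Of the defining markers Cd68 ran from 3.82 to 30.5 RPKM, whereas Csf1r (1.38 to 2.48 RPKM), C1qa (0.205 to 2.02 RPKM) and Adgre1 (0.301 to 0.462 RPKM) were low. The part of macrophage RNA in these slopes was not tested. For Slc11a2 the slope was 0.120 (SE 0.087) and for Ireb2 0.097 (SE 0.095). Slc40a1 was under a mean of 1 RPKM and has no slope: it had 0.851, 0.689, 0.884 and 0.918 RPKM, from 74, 49, 56 and 56 reads. Without the 4 h library the slopes of Tfrc, Slc11a2 and Hmox1 took the other sign, at 0.122, -0.105 and -0.166. With all 4 libraries, the 8 slopes lay between the 5th and 95th percentiles of all genes.

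**Figure D5:**
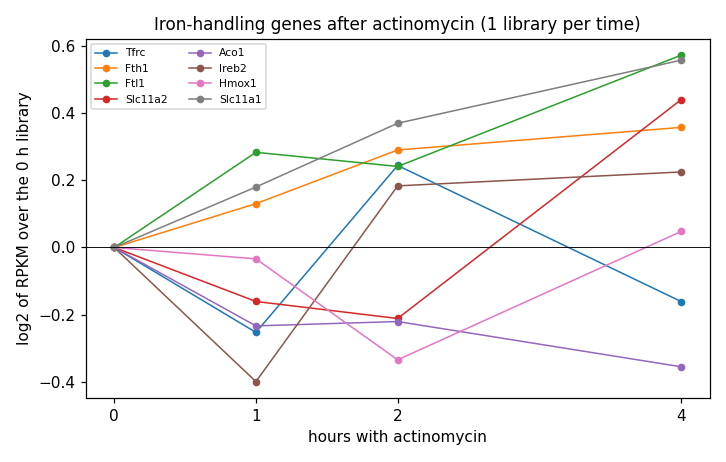
Log2 of RPKM over the 0 h library (vertical axis) against hours with actinomycin for the 8 genes with a slope, 1 library per point. Fth1, Ftl1 and Slc11a1 are above 0 at each later time, and Aco1 is below 0 at each.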

How the data were processed

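For each of 24 libraries, RPKM by gene symbol was deposited by the authors. Their processing notes name BWA and GRCm38; the counting program and annotation are not given in the sources used here. The 9 genes and all lists were chosen with earlier results of these data known. Beside 22009 named entries, 1 without a name summed to 0. Log2(RPKM + 0.5) was fitted in limma (version 3.58.1, R 4.3.3) with its intensity trend switched on. Genes entered if their mean reached 1 RPKM, and p-values were adjusted over all of these by Benjamini-Hochberg. Time points were fitted over 20 libraries and conditions over 18 cultures with time as a factor. The 3 cultures at a time stood in for replicates. The fit was tested on simulated data.

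Mapped reads came from RPKM steps of genes with 1 transcript; 63.2 to 67.7% of low values were within 0.003 of whole reads. Even read counts outnumbered odd (7509 against 5090), so 2 reads were taken as 1 pair. Reads were recovered for Slc40a1, Fth1 and Ireb2, and the other 6 genes have no interval. Ratios have conditional binomial intervals. Named genes are the 9, their 3 nearest profiles, the defining markers, and up to 2 rises and 2 falls of each wider list in a comparison. Other genes of the wider lists are named for the filter or for the lowest adjusted p between conditions. Other macrophage markers are named for the filter or for their share of a sum. Python 3.11.15, numpy 2.4.6, pandas 2.3.3, scipy 1.17.1 and matplotlib 3.10.9 were used.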

Additional observations from a re-analysis of the deposited data

How the results depend on the processing

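Of 1259 changes of the 9 genes recomputed under an alternative, 44 moved by more than the SD left over in the fit. A turn of direction was counted only for changes that were at least 2-fold as reported, and none of those turned. Smaller changes did take the other sign under some alternatives. Tfrc at 20 h was between -0.33 and 0.03, and Slc11a2 from 4 to 24 h between -0.14 and 0.26. The change of Slc40a1 at 24 h was between -7.25, with a pseudocount of 0.1, and -5.90, with a pseudocount of 1, and from 4 to 24 h between -2.05 and -1.15. For Fth1 the change at 24 h was between -1.91 and -1.61, and for Hmox1 between -4.54 and -4.30. The number of genes of the wider lists past the threshold was within 1.5 times the reported one in 141 of 142 recomputed counts. The exception was Th1 against Th0, where a pseudocount of 0.1 gave 1 gene. Over all genes, a mean of at least 5 RPKM gave 646 at 4 h and 1334 at 8 h. Quantile normalization gave 551 rises and 716 falls at 4 h, against 284 and 868, and 1864 and 1586 at 24 h, against 1389 and 1891. It moved the median change of all genes at 24 h from -0.04 to 0.13, and leaving the red cell markers out of the totals, an alternative chosen after seeing the data, moved it to -0.13.

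The slopes after actinomycin rest on single libraries. Without the 4 h library they were 0.122 for Tfrc, -0.105 for Slc11a2, 0.172 for Slc11a1, 0.145 for Fth1, -0.166 for Hmox1 and -0.110 for Aco1, with a median over all genes of -0.039. Without the 0 h library they were 0.216 for Slc11a2 and -0.044 for Aco1, with a median over all genes of 0.014. With a pseudocount of 0.5 the slope of Slc11a1 was 0.103. The cause of these differences was not tested. The labels give the groups no shared replicate numbers. Conditions were compared with time as a factor in the fit, which matches them by time point. With the condition as a block over the 18 cultures, an alternative chosen after seeing the data, 25 genes of the wider lists were past the threshold between 4 and 24 h, as without it, and over all genes 1429 rose and 1393 fell, against 1418 and 1439.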
